A study of Mus musculus with 10 samples.

Results

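Interferon-stimulated genes are the genes that cells switch on after an interferon has bound its receptor, and 36 of them were followed here in the small intestine of mice with and without the metal transporter gene *Zip14* (*Slc39a14*). The 36 genes were taken as a fixed list of symbols. The rule itself used no measured value, but the list was drawn up with earlier results of these data known. All 36 were found among the 35275 Ensembl gene IDs in the counts, and all 36 passed the filter on low counts. By their textbook inducer, 23 were classed as type I members, 10 as gamma-induced members and 3 as members with both inducers, although many genes of either class respond to the other interferon as well. RNA-seq libraries were made from segments of proximal intestine of 5 WT and 5 KO mice, 1 library per mouse, with an age of 8 to 10 weeks in the sample labels. The study's methods name whole-body *Zip14* knockout mice as the source of the sequenced RNA, with WT mice of the same strain, bred from heterozygous parents, and describe also another line that lacks *Zip14* in enterocytes. The title of the deposited series names the enterocyte deletion, and the sample labels give only KO or WT. Sex, litter and exact age were not given per mouse, and values are named below by genotype and replicate number.

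Type I interferons (alpha and beta) and type III interferons (lambda) act through separate receptors that use the kinases JAK1 and TYK2, and both activate ISGF3, a transcription factor complex that binds a DNA element called ISRE. Interferon gamma, the type II interferon made mainly by T cells and NK cells, acts through JAK1 and JAK2 on genes with an element called GAS, among them that of the transcription factor IRF1. The products sense viral RNA and DNA, block viral replication, attack pathogen-containing vacuoles and supply peptides to MHC class I, and in the gut the epithelium is known to respond to lambda and gamma interferon.

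To show the sequences through which these genes are known to be addressed, the RefSeq promoter table (GRCm38.p6, 250 bases before to 50 bases after each gene's start) was searched for the ISRE core, spelled GAAANNGAAA or TTTCNNTTTC on the other strand, and for the GAS core, spelled TTCNNNGAA, which reads the same on both strands. The table held 29 promoters of 25 of the 36 genes. The ISRE core was present in 14 of these 29 promoters (48.3%), against 3.44% of all 32851 promoters, and the GAS core in 7 (24.1%), against 8.30%. Of the promoters of type I members, 9 of 17 held the ISRE core and 3 the GAS core. Of those of gamma-induced members, 5 of 11 held the ISRE core (45.5%, against 52.9% for type I) and 4 the GAS core (36.4%, against 17.6%). Each core was thus found in both classes, and with so few promoters the shares were not compared by a test. A match is only a run of letters and was not tested for binding. The windows below belong to genes to which the results return, namely the called genes *Bst2*, *Oas1a* and *Irgm1*, the gamma-induced *Gbp2* and *Igtp*, and the type I genes *Ifit1* and *Isg15*. Each is written 5′ to 3′ on the strand of the gene, with up to 12 bases on each side and the ISRE cores in capitals.
Bst2, chr8:71537575-71537614, minus strand: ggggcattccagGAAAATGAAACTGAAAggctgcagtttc
Oas1a, chr5:120907526-120907557, minus strand: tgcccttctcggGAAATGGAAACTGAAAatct
Irgm1, chr11:48871423-48871462, minus strand: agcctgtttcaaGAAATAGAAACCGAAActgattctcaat
Gbp2, chr3:142620592-142620625, plus strand: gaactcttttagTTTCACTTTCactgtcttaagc
Igtp, chr11:58199510-58199543, plus strand: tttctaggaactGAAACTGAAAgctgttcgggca
Ifit1, chr19:34640773-34640825, plus strand: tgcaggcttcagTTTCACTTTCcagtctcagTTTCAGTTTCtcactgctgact
Isg15, chr4:156200863-156200908, minus strand: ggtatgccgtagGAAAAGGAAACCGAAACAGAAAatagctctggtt
In *Bst2*, *Oas1a* and *Irgm1* a pair of overlapping cores formed 1 run, and in *Ifit1* the cores stood apart. The GAS core was also present in the promoters of *Bst2*, *Oas1a* and *Igtp*. In *Ddx58* and *Ifih1* the ISRE core began after the RefSeq start of the gene, 2 and 32 bases on. Starts differ between RefSeq and the GENCODE annotation used for the gene positions below. By the latter, the *Irgm1* window and the *Gbp2* core also lie inside the gene.

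The libraries held between 16729787 and 20819678 counts. *Slc39a14* itself was at 260.4 ± 62.5 CPM in WT and 102 ± 32.9 CPM in KO libraries (SD, n = 5 each), with all KO libraries below all WT libraries, a log2 fold change of -1.35 (SE 0.22, edgeR adjusted p = 0.00184). SE, here and in the figures, is an approximate standard error, the absolute log2 fold change over the square root of edgeR's F statistic. Cell type markers differed between the groups as well. Of 6 smooth muscle genes (*Myh11*, *Acta2* and *Des* the most abundant), 6 rose, and their mean log2 CPM was 7.09 to 7.92 in WT and 8.65 to 10.3 in KO libraries, highest in KO 4. Of 5 ileal genes 5 rose (8.22 as the median log2 fold change), 6 of 10 enterocyte genes fell, 2 of the 5 tested genes of the proximal small intestine fell and 5 of 6 epithelial genes rose, so that genotype and position along the gut cannot be told apart in these libraries. None of 10 T and NK cell genes, 5 B cell genes and 2 tested neutrophil genes passed the test, and 1 plasma cell gene rose, while 1 macrophage, 1 dendritic cell and 1 endothelial gene fell. Bulk tissue was sequenced, in which fewer cells of a type and less RNA per cell cannot be told apart.

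Few interferon-stimulated genes passed the test for a difference between the genotypes. *Bst2*, *Oas1a* and *Irgm1* rose in KO mice and *Ddx58* fell, while the other 32 members did not pass an adjusted p of 0.05 in edgeR's quasi-likelihood test. The 3 genes that rose were 8.33% of the members, against 16.0% of the 15610 genes tested, and the 1 that fell was 2.78%, against 13.9%. The groups did not overlap for 2 of 36 members (5.56%), against 21.1% of all genes tested. At an unadjusted p of 0.05, 7 members passed (19.4%, against 43.3% of all genes tested). The median log2 fold change of the members was 0.24, with 27 above 0 and 9 below, beside 0.03 over all genes tested. Without KO 5 it was -0.065, beside 0.015 over all genes, and without KO 4 it was 0.37, beside 0.024.

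The spread among KO mice was wide over these genes. The SD of the log2 CPM (counts scaled to library size with TMM factors) was larger in KO than in WT libraries for 36 of 36 members, as it was for 77.4% of all genes tested. Its median over the members was 0.24 in WT and 0.70 in KO libraries, beside 0.19 and 0.31 over all genes. KO 5 was the highest of the 10 libraries for 21 members (58.3%, against 13.7% of all genes), KO 2 for 10 members (against 8.51%), and KO 4 was the lowest for 23 members (63.9%, against 22.0%). No WT library was the highest for more than 3 members. These are counts of genes that vary together in the same libraries and are given without a test.

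**Figure D1:**
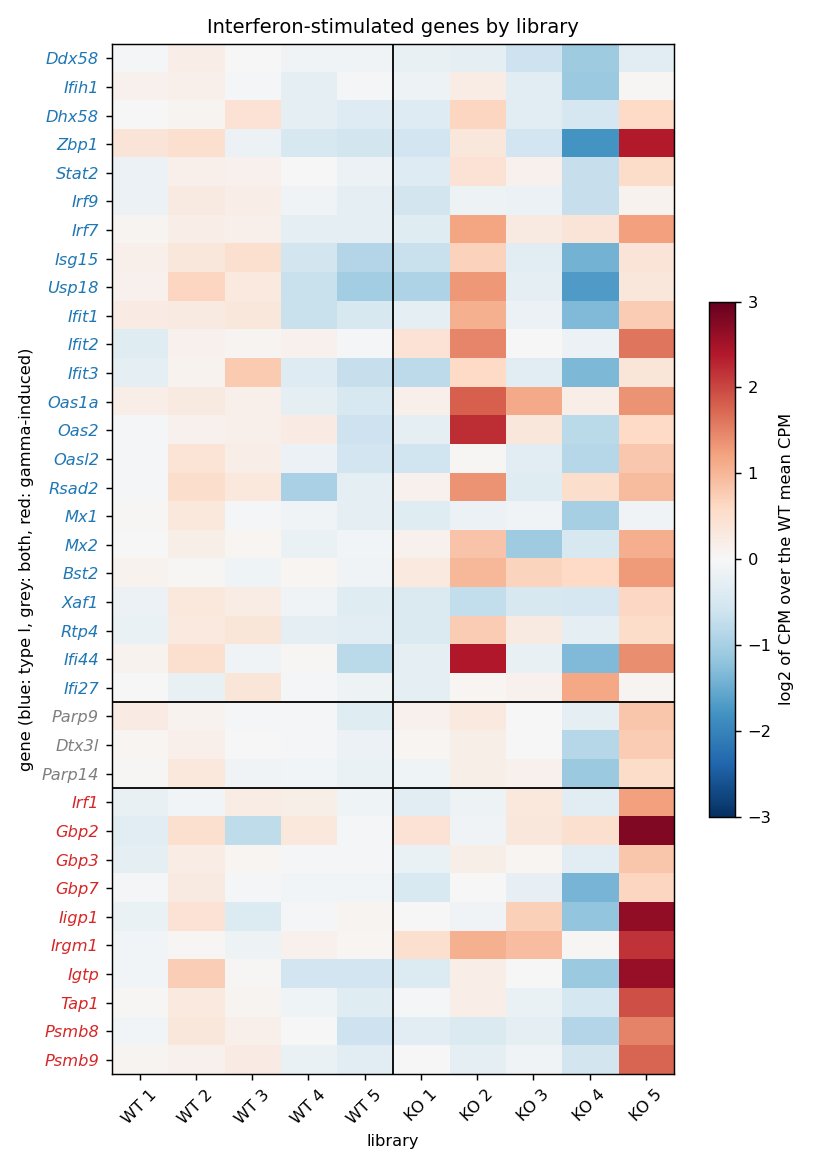
Each row is 1 of the 36 interferon-stimulated genes and each column 1 library, and the colour gives the log2 of the CPM over the mean CPM of the WT libraries (red above, blue below). KO 5 is red for all 10 gamma-induced members at the bottom, KO 2 is red mainly among the type I members at the top, and KO 4 is blue for most members, the lowest library for 23 of 36.

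The mean log2 CPM over the 36 members was 4.67, 4.94, 4.79, 4.52 and 4.36 in WT 1 to 5 and 4.48, 5.19, 4.66, 4.08 and 5.71 in KO 1 to 5. KO 2 and KO 5 lay above every WT library, KO 4 below every one, and KO 1 and KO 3 within the WT range. The group means were 4.66 ± 0.23 and 4.82 ± 0.64 (SD, n = 5 each), a difference of 0.17 that is smaller than the SD of either group. With any 1 library left out the difference lay between -0.05 (without KO 5) and 0.35 (without KO 4), and without KO 2 and KO 5 together, a choice made after the levels were seen, it was -0.25.

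Type I and gamma-induced members parted in the KO libraries that were high. The type I mean was 4.23, 4.48, 4.42, 3.999 and 3.84 in WT 1 to 5 and 3.94, 4.97, 4.12, 3.63 and 4.95 in KO 1 to 5. KO 2 and KO 5 were about level there, both above every WT library. The gamma-induced mean was 5.04, 5.44, 5.10, 5.12 and 4.95 in WT 1 to 5 and 5.08, 5.22, 5.31, 4.58 and 6.97 in KO 1 to 5. Only KO 5 was above the WT range there, by 1.84 over the WT mean, while KO 2 was 0.09 over it. The 3 members with both inducers had a mean of 6.75, 6.83, 6.58, 6.58 and 6.39 in WT 1 to 5 and 6.65, 6.85, 6.67, 5.88 and 7.35 in KO 1 to 5. Again KO 5 was the highest and KO 4 the lowest library. The difference of type I minus gamma-induced members was -0.81, -0.96, -0.69, -1.12 and -1.11 in WT 1 to 5 and -1.15, -0.25, -1.19, -0.96 and -2.02 in KO 1 to 5. KO 2 was above and KO 5 below all WT libraries in that difference, with KO 1 and KO 3 also below by a small margin. Between the groups the type I mean differed by 0.12 and the gamma-induced mean by 0.30 (KO minus WT), and the difference of these differences was -0.18. Each of the 3 changed sign when certain libraries were left out. The type I difference was -0.037 without KO 2, -0.034 without KO 5 and 0.30 without KO 4, and the gamma-induced difference -0.084 without KO 5 and 0.51 without KO 4. The difference of the differences was 0.05 without KO 5 and -0.39 without KO 2. With the median over the members in place of the mean, the gamma-induced difference was 0.60 and the difference of the differences -0.41. With no p for a score over chosen genes, these values are a description.

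**Figure D2:**
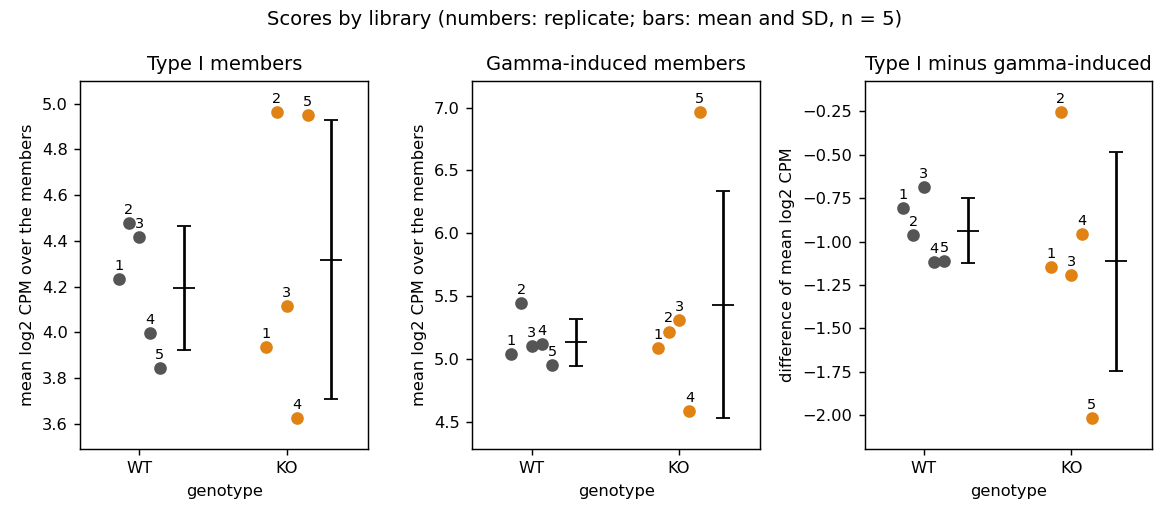
Points give each library's mean log2 CPM over the 23 type I members (left) and the 10 gamma-induced members (middle), and the difference between both (right), with the replicate number above each point and the mean and SD (n = 5) as bars. KO 2 and KO 5 are together at the top on the left, at 4.97 and 4.95, whereas in the middle KO 5 stands alone at 6.97.

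Counted gene by gene, KO 5 was above every WT library for 28 of 36 members (77.8%, against 34.2% of all genes tested), among them 15 of 23 type I and 10 of 10 gamma-induced members. KO 2 was above every WT library for 18 members, 15 of 23 type I and 1 of 10 gamma-induced (32.9% of all genes). KO 4 was below every WT library for 26 members, 16 of 23 type I and 8 of 10 gamma-induced (37.4% of all genes). KO 1 was below every WT library for 13 members, 11 of them type I, and above for 3 (36.1% and 8.33%, against 27.0% of all genes in either direction). KO 3 was above for 7 and below for 6 (19.4% and 16.7%, against 34.3% and 32.5% of all genes), under the share of all genes in both directions.

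*Bst2* (ENSMUSG00000046718, chromosome 8 from 71534255 to 71537456, minus strand, GRCm38) encodes tetherin, which holds budding virus at the cell surface. It was at 15.5, 14.8, 13.3, 15.2 and 13.4 CPM in WT 1 to 5 and 17.7, 28.6, 22.9, 21.9 and 35.05 CPM in KO 1 to 5. All 5 KO libraries were above all 5 WT libraries, and the WT values lay within a narrow band. The log2 fold change was 0.81 (SE 0.17, edgeR adjusted p = 0.00580), and the call was kept with any 1 library left out (adjusted p between 0.00153 and 0.0188).

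*Oas1a* (ENSMUSG00000052776, chromosome 5 from 120896256 to 120907521, minus strand, GRCm38) belongs to the 2′-5′ oligoadenylate synthetases, which activate RNase L on double-stranded RNA. Its counts were 21.7, 22.8, 21.1, 15.7 and 13.6 CPM in WT 1 to 5 and 21.2, 65.99, 41.9, 21.9 and 48.5 CPM in KO 1 to 5. KO 2, KO 3 and KO 5 were above every WT library, whereas KO 1 and KO 4 lay within the upper WT range. The log2 fold change was 1.07 (SE 0.31, edgeR adjusted p = 0.0236). The call was lost without KO 2 (0.80, adjusted p = 0.0524), WT 4 (adjusted p = 0.0541) or WT 5 (adjusted p = 0.0537). Close copies of *Oas1a* lie beside it in the mouse genome, and reads shared with them may be counted for either gene.

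*Irgm1* (ENSMUSG00000046879, chromosome 11 from 48861968 to 48871683, minus strand, GRCm38), an immunity-related GTPase that protects vacuoles and takes part in autophagy, was at 23.5, 25.4, 22.2, 27.1 and 25.6 CPM in WT 1 to 5 and 34.8, 51.6, 47.2, 25.2 and 112 CPM in KO 1 to 5. All KO values but that of KO 4 were above all WT values, and KO 5 was far above the rest. The log2 fold change was 1.13 (SE 0.33, edgeR adjusted p = 0.0255), and without KO 5 it was 0.68 (adjusted p = 0.0231). The call was lost without WT 1 (adjusted p = 0.0589), WT 2 (adjusted p = 0.0557) or WT 3 (adjusted p = 0.0606).

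*Ddx58* (ENSMUSG00000040296, chromosome 4 from 40203773 to 40239828, minus strand, GRCm38) encodes RIG-I, the cytosolic sensor of uncapped viral RNA. Its values were 76.7, 90.97, 79.3, 73.3 and 72.8 CPM in WT 1 to 5 and 67.04, 64.2, 50.9, 37.4 and 63.4 CPM in KO 1 to 5. All KO libraries were below all WT libraries, with KO 4 the lowest. The log2 fold change was -0.47 (SE 0.15, edgeR adjusted p = 0.0356). The call was lost without WT 1 (adjusted p = 0.0640), WT 2 (adjusted p = 0.0878), WT 3 (adjusted p = 0.0683) or KO 3 (adjusted p = 0.0731), and under scaling to library size only (-0.36, adjusted p = 0.0619). With the smooth muscle score as a covariate, which does not overlap between the groups, only 6 of all genes tested and no member were called. The log2 fold changes were then 1.07 (*Bst2*), 2.24 (*Oas1a*), 1.94 (*Irgm1*) and 0.31 (*Ddx58*), with edgeR adjusted p between 0.157 and 0.415.

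**Figure D3:**
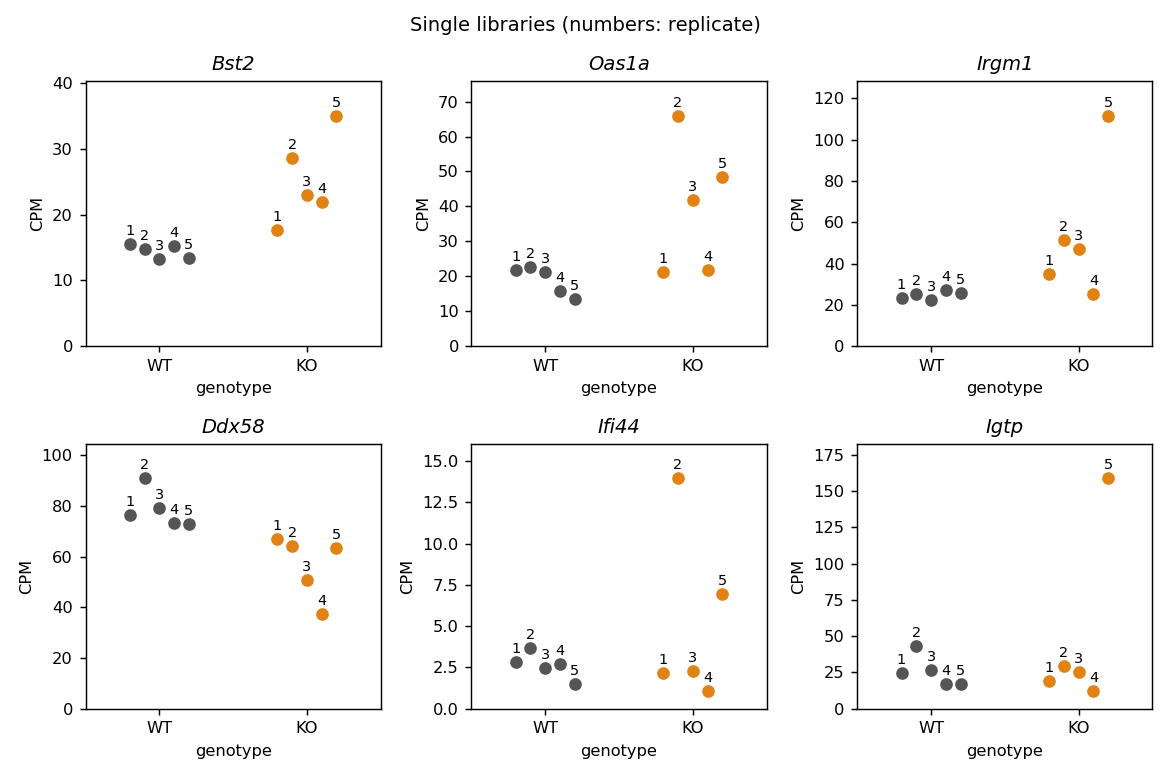
CPM of 6 interferon-stimulated genes in single libraries by genotype, with the replicate number above each point and axes that start at 0. *Bst2* (all KO above all WT) and *Ddx58* (all KO below all WT) are the members without overlap, *Ifi44* is highest in KO 2 and *Igtp* in KO 5.

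The other sensors did not pass the test. *Ifih1*, which encodes the RNA sensor MDA5, was at 101, 103, 90.5, 76.9 and 90.2 CPM in WT 1 to 5 and 83.3, 107, 73.3, 42.7 and 94.4 CPM in KO 1 to 5. Its groups overlapped, and only KO 4 stood well below the WT libraries. *Dhx58*, the gene of LGP2, a helicase that tunes both RNA sensors, was at 8.51, 8.93, 11.5, 6.98 and 6.50 CPM in WT 1 to 5 and 6.53, 13.3, 6.80, 5.96 and 12.9 CPM in KO 1 to 5. KO 2 and KO 5 were above the WT libraries and the other KO libraries within or just below them. *Zbp1*, which encodes a sensor of Z-form nucleic acids, was at 32.5, 34.5, 21.99, 17.7 and 16.8 CPM in WT 1 to 5 and 16.7, 31.2, 16.7, 7.15 and 129 CPM in KO 1 to 5. KO 5 was 5.24 times the WT mean and KO 4 0.289 times, the widest range of the sensors, and the log2 fold change of 0.70 (SE 0.65, edgeR adjusted p = 0.432) carried the largest standard error among the members.

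Among the transcription factors, *Irf7*, the factor that amplifies type I interferon production, was at 98.6, 107, 103, 77.1 and 76.8 CPM in WT 1 to 5 and 71.99, 211, 112, 121 and 218 CPM in KO 1 to 5. KO 2 to KO 5 were above every WT library and KO 1 was below, with a log2 fold change of 0.67 (SE 0.27, edgeR adjusted p = 0.0837). It passed without KO 1 (0.84, adjusted p = 0.0146) and under library size scaling (adjusted p = 0.0435). *Stat2* and *Irf9*, which encode subunits of ISGF3, had log2 fold changes of 0.08 (edgeR adjusted p = 0.795) and -0.26 (edgeR adjusted p = 0.236). *Irf1*, the factor induced by interferon gamma, was at 118, 131, 162, 157 and 126 CPM in WT 1 to 5 and 111, 125, 172, 111 and 324 CPM in KO 1 to 5. KO 5 was 2.34 times the WT mean, KO 3 just above the WT range, and the other KO libraries within or slightly below it.

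The ISG15 system attaches and removes a ubiquitin-like tag. *Isg15*, the tag itself, was at 21.1, 24.2, 26.4, 12.97 and 10.4 CPM in WT 1 to 5 and 12.1, 30.8, 15.2, 7.15 and 25.02 CPM in KO 1 to 5. *Usp18*, the protease that removes the tag and dampens the type I receptor, was at 11.3, 16.01, 12.7, 6.54 and 5.04 CPM in WT 1 to 5 and 5.46, 25.6, 8.47, 3.19 and 12.96 CPM in KO 1 to 5. For both genes KO 2 was the highest and KO 4 the lowest of the 10 libraries, and the log2 fold changes of -0.08 (edgeR adjusted p = 0.896) and 0.11 (edgeR adjusted p = 0.885) were within 1 standard error of 0.

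Among the antiviral effectors, 2 of 14 rose (*Bst2* and *Oas1a*, 14.3%, against 16.0% of all genes tested), none fell, and 10 had a log2 fold change above 0. KO 2 was the highest library for 6 of them and KO 5 for 5. *Ifit1*, whose product binds viral RNA that lacks host cap methylation, was at 38.9, 39.9, 41.5, 20.8 and 23.5 CPM in WT 1 to 5 and 26.8, 68.5, 29.3, 13.2 and 55.9 CPM in KO 1 to 5. *Ifit2*, from the same family, was at 6.18, 8.68, 8.40, 8.68 and 7.62 CPM in WT 1 to 5 and 10.8, 21.7, 7.88, 7.01 and 23.98 CPM in KO 1 to 5. Both were high in KO 2 and KO 5, and *Ifit2* had a log2 fold change of 0.85 (SE 0.34, edgeR adjusted p = 0.0761), which passed under DESeq2 (adjusted p = 0.0429) and under library size scaling (adjusted p = 0.0458). *Ifit3* was highest in WT 3 instead, with a log2 fold change of -0.13 (edgeR adjusted p = 0.813), and reads shared with its close copy *Ifit3b* may be counted for either gene.

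*Oas2*, a larger oligoadenylate synthetase, was at 3.996, 4.59, 4.61, 4.95 and 2.69 CPM in WT 1 to 5 and 3.44, 19.4, 5.29, 2.38 and 6.35 CPM in KO 1 to 5. *Ifi44*, a gene of unsettled antiviral function, was at 2.85, 3.70, 2.45, 2.69 and 1.51 CPM in WT 1 to 5 and 2.14, 13.95, 2.27, 1.05 and 6.93 CPM in KO 1 to 5. KO 2 stood far above every other library for both, at 4.66 and 5.28 times the WT mean, and the log2 fold changes of 0.82 (SE 0.49, edgeR adjusted p = 0.222) for *Oas2* and 0.99 (SE 0.61, edgeR adjusted p = 0.228) for *Ifi44* did not pass. Without KO 2 these log2 fold changes were 0.058 and 0.22. *Rsad2*, which encodes viperin, a maker of a chain-terminating nucleotide, was at 5.71, 8.36, 7.17, 2.97 and 4.82 CPM in WT 1 to 5 and 6.31, 14.7, 4.48, 8.34 and 11.2 CPM in KO 1 to 5. KO 2 and KO 5 were again above the WT range, KO 4 at its upper end.

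*Oasl2* and *Mx1* had log2 fold changes of -0.06 (edgeR adjusted p = 0.890) and -0.32 (edgeR adjusted p = 0.222), and *Mx2* of 0.32 (edgeR adjusted p = 0.527). *Mx1* and *Mx2* encode dynamin-like GTPases that trap viral components, and *Mx2* is annotated as a polymorphic pseudogene in the reference. *Xaf1*, a pro-apoptotic gene, was at 28.2, 40.1, 37.2, 29.5 and 24.7 CPM in WT 1 to 5 and 23.5, 19.3, 22.7, 22.5 and 49.4 CPM in KO 1 to 5. KO 1 to KO 4 were below every WT library and KO 5 was above, so that the log2 fold change of -0.22 (edgeR adjusted p = 0.537) became -0.54 without KO 5 (adjusted p = 0.0244), past the threshold. *Rtp4*, a regulator of the type I response, had a log2 fold change of 0.25 (edgeR adjusted p = 0.454). *Ifi27*, whose product sits in the nuclear envelope or mitochondria, was at 47.2, 40.1, 60.7, 45.1 and 42.7 CPM in WT 1 to 5 and 39.3, 48.7, 51.8, 105 and 50.05 CPM in KO 1 to 5. It was the 1 member for which KO 4 was the highest library.

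The guanylate-binding proteins and immunity-related GTPases coat and disrupt vacuoles that hold pathogens, and they are the members that gamma interferon is best known to induce. Of the 6, 1 rose (*Irgm1*, 16.7%, against 16.0% of all genes tested), and KO 5 was the highest library for all 6, as it was for 13.7% of all genes. *Gbp2* was at 14.7, 25.3, 10.8, 22.8 and 17.5 CPM in WT 1 to 5 and 24.6, 17.05, 23.2, 25.4 and 124 CPM in KO 1 to 5. KO 5 was 6.82 times the WT mean and the other KO libraries stayed at or near the WT range, with a log2 fold change of 1.24 (SE 0.53, edgeR adjusted p = 0.0968) that was 0.31 (adjusted p = 0.341) without KO 5. *Iigp1* was at 12.5, 19.2, 10.7, 13.7 and 15.1 CPM in WT 1 to 5 and 14.4, 13.3, 23.3, 6.29 and 90.2 CPM in KO 1 to 5. KO 5 was 6.33 times the WT mean and KO 4 0.441 times. *Igtp* was at 24.5, 43.3, 26.4, 17.3 and 17.3 CPM in WT 1 to 5 and 19.4, 29.6, 25.4, 11.9 and 159 CPM in KO 1 to 5. KO 5 was 6.15 times the WT mean, KO 4 was below all WT libraries, and the log2 fold change of 0.93 became -0.26 without KO 5 (adjusted p = 0.565). *Gbp3* and *Gbp7* reached 1.79 and 1.57 times the WT mean in KO 5. Genes of the *Gbp* family are alike in sequence, and *Igtp* overlaps *Irgm2* on the same strand, so that shared reads may be counted for either gene. Over the 6 GTPases the median log2 fold change was 0.99, and without KO 5 it was -0.03.

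The 3 antigen processing members serve the supply of peptides to MHC class I. *Tap1*, a subunit of the peptide transporter, was at 77.5, 93.2, 80.2, 69.4 and 59.3 CPM in WT 1 to 5 and 74.6, 86.5, 65.7, 52.7 and 288 CPM in KO 1 to 5. The immunoproteasome gene *Psmb8* was at 64.9, 87.4, 76.6, 69.1 and 44.8 CPM in WT 1 to 5 and 55.5, 50.8, 57.3, 36.98 and 193 CPM in KO 1 to 5. Its partner *Psmb9* was at 64.1, 66.5, 72.4, 52.9 and 48.5 CPM in WT 1 to 5 and 61.2, 50.6, 56.3, 41.7 and 206 CPM in KO 1 to 5. For all 3 genes KO 5 alone was above the WT range, at 3.80, 2.82 and 3.38 times the WT mean, and KO 4 was the lowest of the 10 libraries. Their median log2 fold change of 0.45 became -0.22 without KO 5. *Tap1* and *Psmb9* overlap on opposite strands, and without known strand handling their shared reads cannot be told apart.

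*Parp9*, *Dtx3l* and *Parp14*, which encode an ADP-ribosylating complex and a related enzyme, were the members with both inducers. *Parp9* ranged from 66.5 to 101 CPM in WT and from 69.3 to 151 CPM in KO libraries. *Dtx3l* ranged from 75.3 to 94.8 CPM and from 46.8 to 144 CPM, and *Parp14* from 118 to 167 CPM and from 62.8 to 197 CPM. KO 5 was the highest library for all 3, and the log2 fold changes of 0.24 (edgeR adjusted p = 0.370), 0.11 (edgeR adjusted p = 0.726) and 0.02 (edgeR adjusted p = 0.965) did not pass. *Parp9* and *Dtx3l* overlap on opposite strands.

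**Figure D4:**
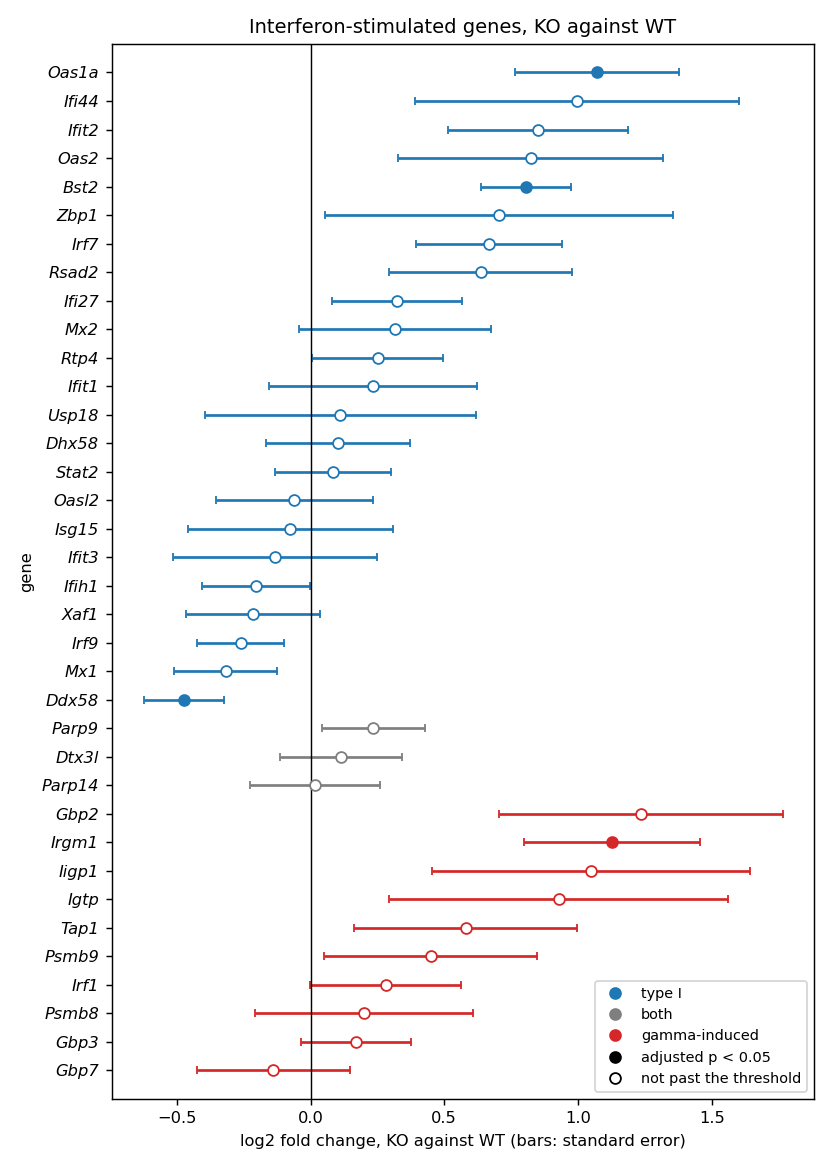
Log2 fold change of KO against WT with its standard error (bars) for the 36 members, sorted within the classes, with filled points for an adjusted p under 0.05 in edgeR's quasi-likelihood test. Of 36 points 4 are filled, *Oas1a*, *Bst2*, *Irgm1* and *Ddx58*, and *Zbp1* has the widest bar.

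The level of the members per length of exon spanned from 0.431 CPM per kb (*Ifi44*) to 34.9 CPM per kb (*Irf1*) in WT libraries. *Ifi27* (32.2 CPM per kb), *Isg15* (25.2 CPM per kb), *Irf7* (24.5 CPM per kb) and *Psmb8* (20.3 CPM per kb) followed *Irf1*, and *Mx2* (0.624 CPM per kb) and *Oas2* (0.936 CPM per kb) were also low. The member with the fewest counts, *Mx2*, had 198 over the WT and 267 over the KO libraries.

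The other genes of the pathway were read from the same test in a list of 53 genes. Of these, 42 were tested, 4 rose (9.52%, against 16.0% of all genes) and 10 fell (23.8%, against 13.9%). The ligands were at or near 0. *Ifnb1*, *Ifna1*, *Ifna2*, *Ifna4*, *Ifnl2* and *Ifnl3* had 0 counts in every library, which allows up to 3 counts in each at 95% confidence (counting error only). *Ifng* had 19 counts in KO 5 (0.997 CPM) and at most 3 in any other library, and the difference between the groups did not pass (exact permutation test, 2-sided p = 0.548).

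The receptor subunits moved in both directions. *Ifngr1*, the ligand-binding subunit for gamma interferon, was at 132, 114, 115, 129 and 126 CPM in WT 1 to 5 and 155, 164, 175, 209.8 and 197 CPM in KO 1 to 5. All KO libraries were above all WT libraries, with a log2 fold change of 0.55 (SE 0.10, edgeR adjusted p = 0.00343). *Ifnlr1*, the subunit specific to lambda interferon, was at 38.4, 35.7, 46.02, 41.00 and 35.9 CPM in WT 1 to 5 and 24.00, 21.5, 24.9, 27.7 and 27.5 CPM in KO 1 to 5. All KO libraries were below, with a log2 fold change of -0.65 (SE 0.10, edgeR adjusted p = 0.00178). Its partner *Il10rb* fell as well (log2 fold change -0.47 (SE 0.09, edgeR adjusted p = 0.00402)), and so did the type I receptor subunit *Ifnar2* (log2 fold change -0.59 (SE 0.13, edgeR adjusted p = 0.00733)), both without overlap. The other type I subunit *Ifnar1* (-0.25 (edgeR adjusted p = 0.0868)) and the other gamma subunit *Ifngr2* (0.11 (edgeR adjusted p = 0.383)) did not pass. The calls on the 4 receptor genes were kept with any 1 library left out.

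Of the kinases, *Jak2*, which serves the gamma receptor, fell (log2 fold change -0.56 (SE 0.16, edgeR adjusted p = 0.0225)), although the call was lost without WT 2 (adjusted p = 0.0563) and under library size scaling (-0.43, adjusted p = 0.0532). *Tbk1*, the kinase that activates IRF3 after nucleic acid sensing, fell (log2 fold change -0.69 (SE 0.12, edgeR adjusted p = 0.00218)). Among the sensing genes, *Mavs*, the adaptor through which RIG-I and MDA5 signal, was at 119, 107, 112, 89.03 and 86.5 CPM in WT 1 to 5 and 82.02, 57.4, 55.9, 65.6 and 65.5 CPM in KO 1 to 5. Its log2 fold change was -0.65 (SE 0.13, edgeR adjusted p = 0.00456), with no overlap between the groups. The RNA receptor gene *Tlr7* fell (log2 fold change -0.82 (SE 0.21, edgeR adjusted p = 0.0164)), and so did the TLR adaptor gene *Ticam1* (log2 fold change -0.27 (SE 0.09, edgeR adjusted p = 0.0348)), the latter kept in only 3 of the 10 fits that leave out 1 library (adjusted p up to 0.0865) and lost under library size scaling (-0.15, adjusted p = 0.137) and without a filter (adjusted p = 0.0569). *Tmem173*, which encodes the DNA-sensing adaptor STING, rose instead (log2 fold change 0.60 (SE 0.16, edgeR adjusted p = 0.0181)).

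*Nlrc5*, the transactivator of MHC class I genes, was at 7.16, 13.1, 9.39, 10.1 and 7.96 CPM in WT 1 to 5 and 13.01, 16.8, 20.7, 9.15 and 66.4 CPM in KO 1 to 5. Its log2 fold change of 1.40 (SE 0.48, edgeR adjusted p = 0.0463) passed, and without KO 5 it was 0.65 (adjusted p = 0.0724), and leaving out KO 2, KO 3 or any WT library also ended the call (adjusted p up to 0.102), as did robust dispersion (adjusted p = 0.0614) and no filter (adjusted p = 0.0520). *Socs1*, a feedback inhibitor of JAK kinases, was at 4.31, 2.998, 3.67, 2.64 and 3.31 CPM in WT 1 to 5 and 5.58, 8.60, 10.7, 6.43 and 19.99 CPM in KO 1 to 5. All KO libraries were above all WT libraries, with a log2 fold change of 1.60 (SE 0.33, edgeR adjusted p = 0.00581). *Socs3*, the inhibitor best known from the STAT3 pathway, fell (log2 fold change -1.01 (SE 0.24, edgeR adjusted p = 0.00992)). *Il18*, a cytokine that induces interferon gamma, was at 89.5, 96.6, 74.7, 54.4 and 65.9 CPM in WT 1 to 5 and 16.8, 19.4, 13.4, 12.1 and 13.2 CPM in KO 1 to 5. It had the largest change of the pathway genes tested, a log2 fold change of -2.35 (SE 0.18, edgeR adjusted p = 6.66e-05). None of the 9 class I presentation genes passed. KO 5 was the highest library for 8 of them, among them *B2m*, the light chain of MHC class I, at 1760.5, 1793, 1709, 1412 and 1396 CPM in WT 1 to 5 and 1343, 1058, 823, 975 and 2489 CPM in KO 1 to 5. Without KO 5 the *B2m* log2 fold change was -0.62 (adjusted p = 0.0223), past the threshold.

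**Figure D5:**
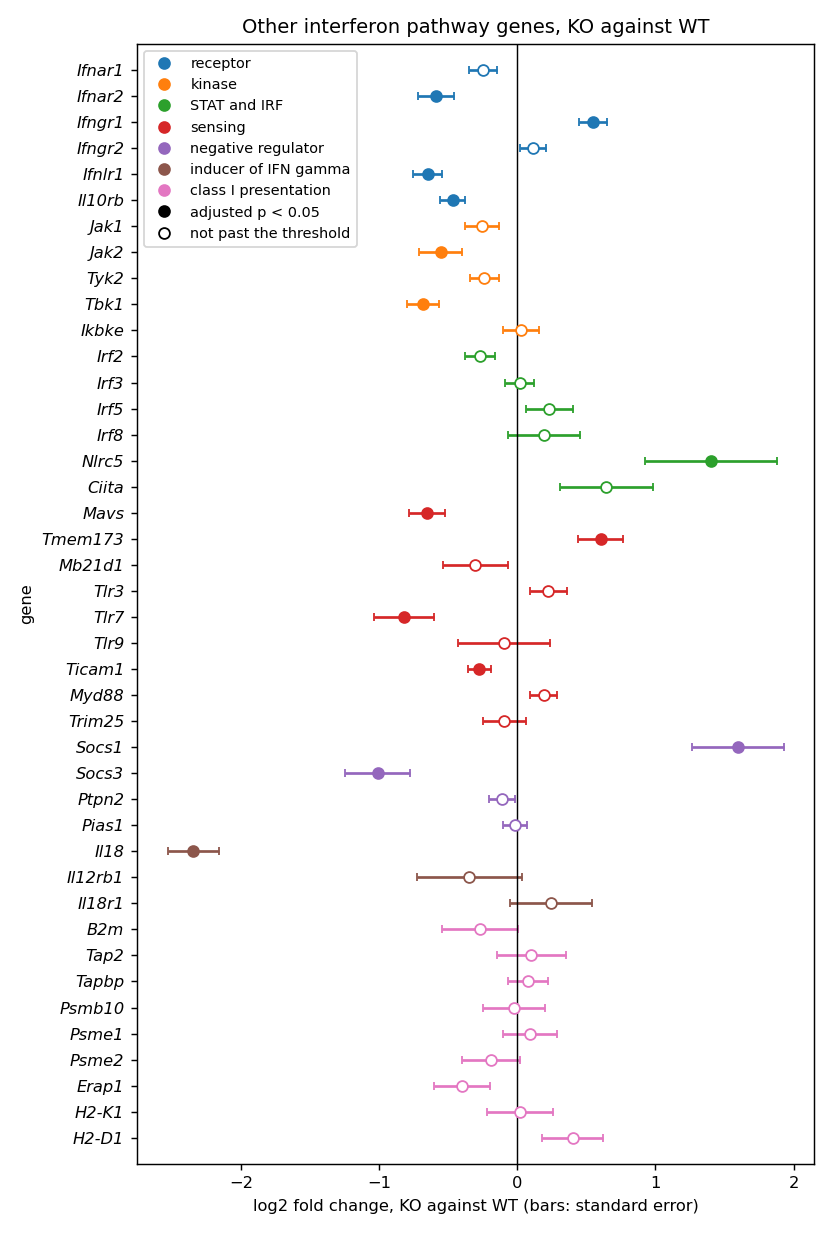
Log2 fold change of KO against WT with its standard error (bars) for the 42 tested genes of the interferon pathway list, coloured by role, with filled points for an adjusted p under 0.05 in edgeR's quasi-likelihood test. Of the 14 filled points 10 are below 0, *Il18* the farthest at -2.35, and 4 are above 0, *Socs1* the farthest at 1.60.

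Markers of the cells that make interferon gamma were set beside the high gamma-induced values of KO 5. The mean log2 CPM of 10 T and NK cell genes was 3.69, 4.26, 4.06, 3.29 and 3.10 in WT 1 to 5 and 3.61, 3.22, 2.35, 2.37 and 3.89 in KO 1 to 5. KO 5 was the highest KO library but within the WT range, KO 3 and KO 4 were below it, and the summed level of the 10 genes was 102 to 283 CPM in WT and 56.9 to 254 CPM in KO libraries. The granzyme gene *Gzma* was at 67.3, 96.96, 84.99, 31.8 and 21.1 CPM in WT 1 to 5 and 49.7, 36.2, 12.8, 11.5 and 107 CPM in KO 1 to 5. *Gzmb* was at 19.9, 35.6, 30.6, 11.5 and 8.35 CPM in WT 1 to 5 and 16.4, 12.6, 3.72, 2.81 and 52.5 CPM in KO 1 to 5. In both, KO 5 was the highest of the 10 libraries, while *Itgae*, a gene of intraepithelial lymphocytes, was at 26.8 CPM in KO 5, within the WT range of 21.8 to 46.4 CPM. Their part in the result was not tested.

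B cell genes followed another order. Their mean log2 CPM was 1.06, 1.40, 1.35, 0.96 and 4.18 in WT 1 to 5 and 1.08, 4.98, 5.08, 5.39 and 1.68 in KO 1 to 5. WT 5, KO 2, KO 3 and KO 4 were high and the other libraries low, so that of the KO libraries high in interferon-stimulated genes 1 (KO 2) was high and 1 (KO 5) low in B cell genes. The summed level of the 5 B cell genes was 14.1 to 92.3 CPM in WT and 14.98 to 221 CPM in KO libraries, and their part in the result was not tested. KO 4, low in most members, had the highest smooth muscle score (10.3), and its part in these low values was not tested. The macrophage score was below the WT range in KO 4 (4.42) and in KO 3 (4.35), and the dendritic cell score in KO 2 to KO 5 (2.06, 1.52, 1.68 and 2.06). In KO 2 and KO 5, high in the members, the macrophage score (5.06 and 5.01) was within the WT range of 4.78 to 5.22, and the part of both scores in the members' levels was not tested. The mean log2 CPM of 5 plasma cell genes was 5.93, 6.10, 6.12, 5.89 and 5.60 in WT 1 to 5 and 6.12, 5.95, 5.54, 5.18 and 6.52 in KO 1 to 5. KO 5 was above and KO 4 and KO 3 below the WT range there, with KO 2 within it, and *Jchain*, the most abundant of the 5, was also highest in KO 5 (1384.5 CPM) and lowest in KO 4 (242 CPM). The summed level of the 5 genes was 1035 to 1655 CPM in WT and 622 to 1897 CPM in KO libraries, and their part in the members' levels was not tested.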

How the data were processed

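The deposited values are raw counts for each Ensembl gene ID, 1 file for each of 10 libraries, which the authors left as whole numbers and did not normalize. The labels name a SMARTer mRNA-Seq kit. The submitters' processing notes list FastQC 0.11.9, Trimmomatic, HISAT2 2.0.4, SAMtools 1.3.1 and DESeq2 1.14.1 and the builds GRCm38 and mm10, while for the read counter, its annotation and strand handling the entry is: not given in the sources used here. Multi-mapped reads of gene copies and reads of overlapping genes may therefore be counted for either gene.

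GENCODE M21 (GRCm38) placed and named the gene IDs, 34490 of 35275 with a symbol. Library totals were 16729787 to 20819678 counts in WT mice and 17118742 to 19414828 in KO mice, and floors for counts of 0 cover counting error only. In R 4.3.3, edgeR 4.0.16 (quasi-likelihood test, TMM factors, filterByExpr with a minimum count of 10 and a minimum total of 15) compared 5 KO with 5 WT libraries over 15610 genes, adjusted over all of them by Benjamini-Hochberg with a threshold of 0.05. CPM are counts scaled to library size with the TMM factors, and for log2 CPM a prior count of 2 was used. Genes below the filter were compared by an exact permutation test over both groups of 5 (lowest 2-sided p 0.00794). The tests were run on simulated data with known changes first.

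Alternatives were RLE normalization, library size scaling, DESeq2 1.42.0, no filter, a minimum mean count of 10, robust dispersion, a replicate block, the smooth muscle score as covariate, each library left out, prior counts of 0.5 and 5, and the median in place of the mean for scores. All 36 members are named. Of the pathway list, every receptor subunit, every called gene and *Ifng*, *Ifnb1*, *Ifnl2*, *Ifnl3*, *Nlrc5* and *B2m* are named, and at most the 3 most abundant genes of a marker list. 1 further pathway gene was taken off that list and is not reported here. *Ifna1*, *Ifna2* and *Ifna4* were named after their counts of 0 were seen. The members, classes and lists were chosen with earlier results of these data known. Promoters came from a RefSeq table (GRCm38.p6), and *Mx2*, *Usp18*, *Oas2*, *Mx1*, *Rtp4*, *Parp9*, *Parp14*, *Dhx58*, *Iigp1*, *Ifi27* and *Zbp1* had no entry there.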

Additional observations from a re-analysis of the deposited data

Results flagged for a closer look

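Of 112 sets of 5 libraries that were tested, 8 held a library far from the 4 others by Dixon's criterion, of which chance gives about 1 in 20. 7 of the 8 were in KO mice, and in 4 the library was KO 5.

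KO 5 was far above the other KO libraries for *Gbp2* (124 CPM, the others 17.0 to 25.4 CPM), *Psmb8* (193 CPM, the others 37.0 to 57.3 CPM), *Psmb9* (206 CPM, the others 41.7 to 61.2 CPM) and *Xaf1* (49.4 CPM, the others 19.3 to 23.5 CPM). KO 4 was far below the others for *Mx1* (3.86 CPM, the others 6.03 to 7.19 CPM) and far above them for *Ifi27* (105 CPM, the others 39.3 to 51.8 CPM). In WT mice, WT 2 was far above the others for *Gbp7* (33.0 CPM, the others 25.8 to 26.5 CPM). Among the receptor genes, KO 1 was far above the other KO libraries for *Ifnar1* (61.6 CPM, the others 45.9 to 47.6 CPM).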

How the results depend on the processing

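The number of members that rose was 5 of 36 under library size scaling, 0 with the smooth muscle covariate and 1 to 4 with libraries left out. The number that fell was 0 under library size scaling, 0 with the covariate and 0 to 2 with libraries left out. Over all genes tested, 3608 of 15610 rose and 1589 fell under library size scaling, beside 2491 and 2169 in the main fit. With libraries left out, 1634 to 2944 rose and 1573 to 2563 fell, of 15720 to 15979 genes. Of the pathway genes, 0 rose and 0 fell with the covariate, and 2 to 4 rose with libraries left out. Members without overlap numbered 2 or 3 with 1 library left out and 5 without KO 2 and KO 5. A lack of overlap is easier to reach with fewer libraries, and the share over all genes was not computed for these smaller sets. These ranges include the fit without KO 2 and KO 5, chosen after the data were seen. The covariate does not overlap between the groups, and only 6 of 15610 genes were called with it. Library size scaling moved the median log2 fold change of all genes to 0.15.

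Signs also turned, mostly for members that were not called. With the smooth muscle covariate, log2 fold changes were 0.31 (*Ddx58*), 0.87 (*Ifih1*), 0.24 (*Irf9*), 1.71 (*Isg15*), 1.22 (*Ifit3*), 1.001 (*Oasl2*), 0.50 (*Mx1*), 0.15 (*Xaf1*), -0.85 (*Ifi27*), 1.05 (*Gbp7*), -0.048 (*Ifngr2*), 0.074 (*Jak2*) and 0.38 (*B2m*). *Ddx58* and *Jak2* were the called genes among them, and the cause was not tested. Under library size scaling they were 0.055 (*Isg15*) and 0.057 (*Oasl2*), and without a filter -0.0027 (*Parp14*).

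The replicate block gave -0.088 (*Zbp1*), -0.12 (*Usp18*), -0.064 (*Parp14*) and -0.10 (*Psmb8*). With the replicate block, 2 members rose and 1 fell: *Bst2* 0.77, *Oas1a* 0.96 and *Ddx58* -0.50 passed and *Irgm1* 0.94 did not (adjusted p = 0.0533), nor did the pathway genes *Nlrc5* 1.03 (adjusted p = 0.121) and *Ticam1* -0.28 (adjusted p = 0.0928). Over all genes tested, 1950 of 15610 rose and 1898 fell with the block. The replicate numbers did not pair the libraries, since same-numbered libraries correlated between -0.167 and 0.177 and only number 4 correlated best with its own.

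With libraries left out, singly or KO 2 and KO 5 together, the log2 fold change changed sign for 22 members, within -0.40 to 0.23 (*Dhx58*), -0.88 to 0.98 (*Zbp1*), -0.28 to 0.23 (*Stat2*), -0.10 to 0.40 (*Irf1*), -0.73 to 0.13 (*Isg15*), -0.86 to 0.35 (*Usp18*), -0.51 to 0.46 (*Ifit1*), -0.77 to 0.15 (*Ifit3*), -0.17 to 1.05 (*Oas2*), -0.57 to 0.086 (*Oasl2*), -0.38 to 0.51 (*Mx2*), -0.11 to 0.38 (*Rtp4*), -0.54 to 1.26 (*Ifi44*), -0.15 to 0.28 (*Gbp3*), -0.62 to 0.058 (*Gbp7*), -0.45 to 1.19 (*Igtp*), -0.055 to 0.34 (*Parp9*), -0.21 to 0.28 (*Dtx3l*), -0.29 to 0.20 (*Parp14*), -0.24 to 0.76 (*Tap1*), -0.46 to 0.38 (*Psmb8*) and -0.22 to 0.62 (*Psmb9*). The differences in the scores moved by less than the pooled SD of both groups under every alternative run, yet those of all, type I and gamma-induced members fell below 0 without KO 5. RLE normalization, robust dispersion and a mean count of at least 10 turned no sign among the 53 genes followed.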
